A study of Mus musculus with 12 samples.

Results

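Whole retina of Abca4 knockout (Abca4Ko) mice was compared with whole retina of control mice, in 3 libraries against 3. These are all of the retina lysate libraries, 6 of the 12 libraries of the series, and they were taken by their labels (KO Input and WT Input). The other 6 hold the ribosome-bound messages of rods from the same study (rod TRAP, translating ribosome affinity purification) and are used here only where a retinal difference is set beside its value in rods. All mice were 2 months old. Knockouts were RiboTag, Abca4-/- and i75-Rod-Cre, and controls were RiboTag, Abca4+/+ and i75-Rod-Cre, so both genotypes carried the tagged ribosomal protein allele and a Cre driven by a rod promoter. Retinas were taken after perfusion with cycloheximide, and 5 ng of lysate RNA went into each library. Neither the sex of the animals behind a library nor whether animals were pooled is given in the sources used here. Nothing says that the libraries of a genotype came from separate animals, so the p-values measure the spread between these libraries, which may be technical.

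ABCA4 is a transporter of photoreceptor outer segment discs that helps to clear all-trans-retinal, the aldehyde released when light bleaches visual pigment, by moving its conjugate with phosphatidylethanolamine to the cytoplasm. The retinaldehyde is then reduced to retinol and passed to the retinal pigment epithelium (RPE), where the chromophore is rebuilt. Loss of ABCA4 is known for bisretinoid build-up in the RPE and, in humans, for Stargardt disease. Whole retina holds every retinal cell class, with rods the most numerous in the mouse, and dissection can bring along tissue that lies against it, such as lens or RPE.

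The libraries differed in ways that the genotype labels do not give, and these come before the results. Abca4 itself was at 153 scaled counts in KO 1, 366 in KO 2 and 8124 in KO 3, against 38929, 37619 and 38090 in controls 1 to 3. KO 3 held 19.6% of the mean control level, where KO 1 and KO 2 held 0.453% and 0.921%. The library labelled KO 3 thus went against its label in part. KO 3 below means that retina library unless rod TRAP is named, and the counts of genes called below are given with and without it. The rod TRAP library labelled KO 3 also held Abca4 message. It had 13156 scaled counts, against 195 and 365 in KO 1 and KO 2 and 53193 to 61017 in the controls there. Genotype differences in rod TRAP given below include that library. Summed over the 23 genes of the lens list, the level was 15.5 CPM (counts per 1000000 counts) in KO 1, 4593 in KO 2 and 6252 in KO 3, and 16160 in control 1, 28.6 in control 2 and 68.4 in control 3. Lens messages were thus high in KO 2, KO 3 and control 1 and low in KO 1, control 2 and control 3, so they crossed the genotypes. In control 1 they were 1.57% of all scaled counts. Cryaa, the lens chaperone αA-crystallin, had 48, 40408 and 55271 scaled counts in KO 1 to 3 and 104841, 146 and 340 in controls 1 to 3. The same 3 libraries were high in the summed deposited TPM (10190, 15230 and 34210) and low were KO 1 (32.0), control 2 (71.1) and control 3 (145.1). Xist, the RNA of the inactive X chromosome, was at 29.0, 0 and 22.8 CPM in KO 1 to 3 and at 0.115, 0 and 7.14 CPM in controls 1 to 3. The 4 Y-linked genes of the list summed to between 9.62 CPM (control 3) and 29.8 CPM (KO 2) in every library. KO 1, KO 3 and control 3 therefore each held messages of both kinds. The mitochondrially encoded messages stood at 61500 CPM in KO 1 against 16410 to 27910 CPM in the other 5 libraries.

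**Figure D1:**
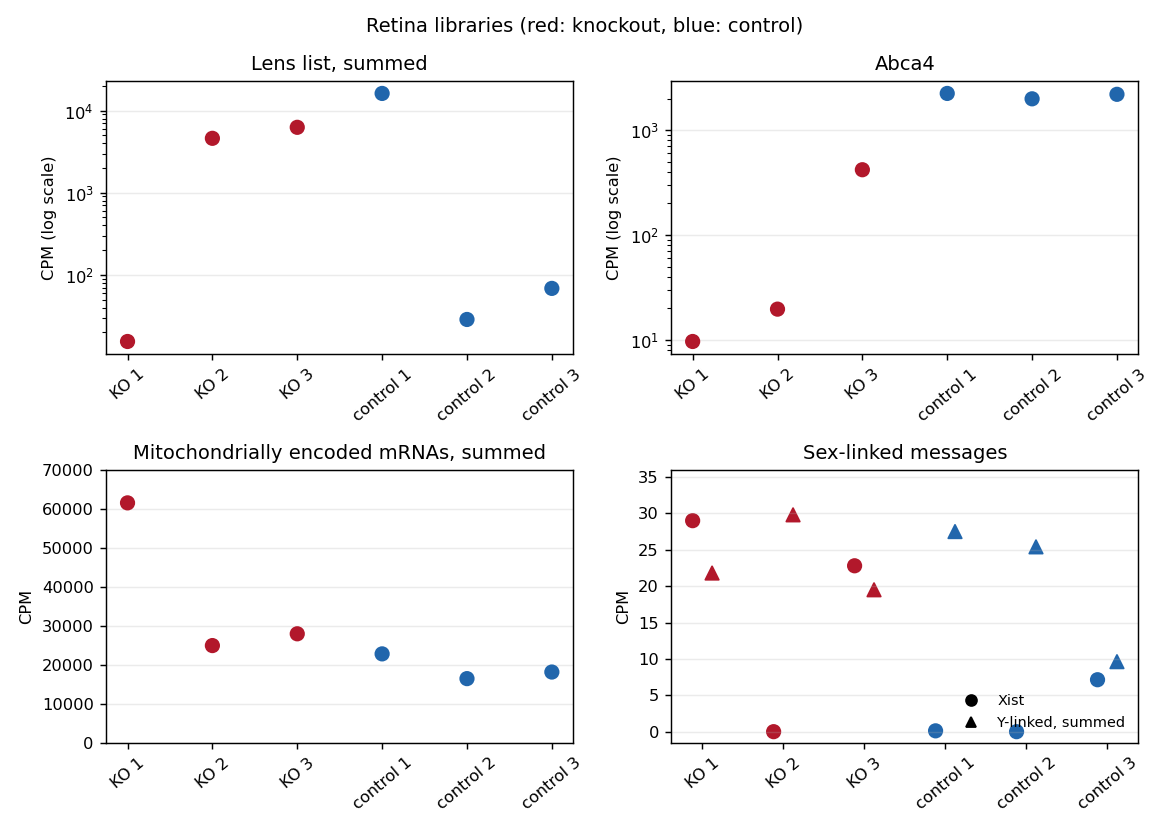
Level of the lens list and of Abca4 (CPM, log scale), of the mitochondrially encoded messages and of Xist and 4 summed Y-linked genes (CPM) in each of the 6 retina libraries, with 1 point per library and quantity. The lens list was at 4593 CPM or above in KO 2, KO 3 and control 1 and at 68.4 CPM or below in the others, and Abca4 in KO 3 (419.5 CPM) lay between the other knockouts and the controls.

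Of 16964 genes tested in retina, 18 passed a limma adjusted p under 0.05 (0.106% of those tested), 15 higher in Abca4Ko (0.0884%) and 3 lower (0.0177%). The fold changes are on a log2(CPM + 0.5) scale, and those of genes near 0 depend on the 0.5. All 18 separated the 3 knockout from the 3 control libraries without overlap, as did 19.9% of all tested genes. An unadjusted p under 0.05 was reached by 2034 genes (12.0%), of which 1513 were higher (8.92%) and 521 lower (3.07%), and the median log2 fold change over all genes was -0.02. Without KO 3, 37 genes passed (0.218%), 29 higher and 8 lower, and 17 of the 18 were among them; Tnnt1 was not. A second library carried much of the count: without control 3, 1 of the 18 passed, while the other 17 kept their direction with limma adjusted p between 0.052 and 0.397.

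**Figure D2:**
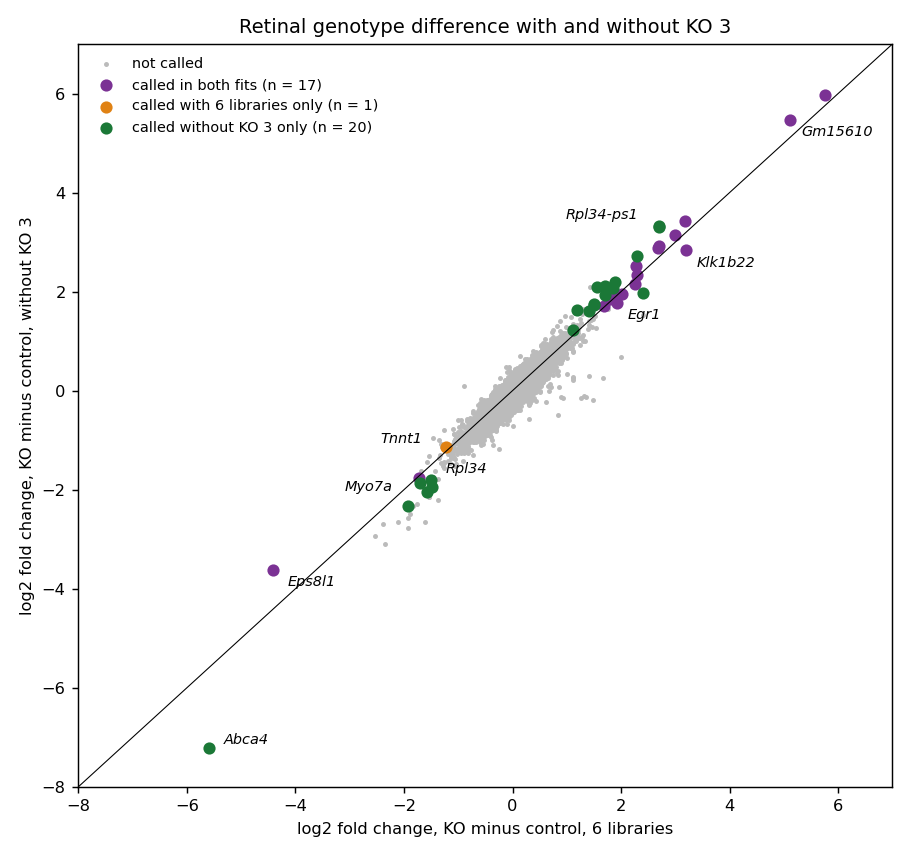
Log2 fold change (KO minus control) of the 16964 tested genes from all 6 libraries (x axis) and without KO 3 (y axis), with 1 point per gene and the line of equal values. The 17 genes called in both fits lie near the line, Tnnt1 was called with 6 libraries only, and 20 genes, Abca4 among them, were called only without KO 3.

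Egr1, a zinc finger transcription factor that neurons and glia switch on within minutes of stimulation, had 1739, 2745 and 3377 scaled counts in KO 1 to 3 and 787, 830 and 444 in controls 1 to 3. The lowest knockout library was above the highest control library. The log2 fold change was 1.92 (SE 0.25, limma adjusted p = 0.0214), and 1.77 without KO 3 (limma adjusted p = 0.0157). The call was lost without control 3 (1.66, limma adjusted p = 0.119), on the TPM table (0.101), with the authors' scaling alone (0.113) and with all 12 libraries (0.274). In rod TRAP a single knockout library was high, with 1381 scaled counts in KO 1 against 83 and 108 in KO 2 and KO 3 and 46 to 70 in the controls. There the difference did not pass (log2 fold change 2.00, limma adjusted p = 0.682).

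Dio2, the deiodinase that makes active T3 from T4, had 471, 246 and 435 scaled counts in KO 1 to 3 and 90, 93 and 74 in controls 1 to 3. Its level was 21.8 ± 8.31 CPM in knockouts and 4.78 ± 0.468 CPM in controls (SD, n = 3), with no overlap, and the log2 fold change was 2.01 (SE 0.29, limma adjusted p = 0.0368). The call was lost on the TPM table (1.48, limma adjusted p = 0.131), with the authors' scaling alone (0.0602), with the higher filter (0.0587) and in 4 of the 6 fits that leave out a library. On a scale set over all 12 libraries, its mean in controls was 3.96 CPM in retina and 0.428 CPM in rod TRAP, and in knockouts 18.0 and 1.05 CPM. The genotype difference in rod TRAP did not pass (log2 fold change 0.68, limma adjusted p = 0.303), nor did the difference between the fractions' genotype effects (1.26, limma adjusted p = 0.407).

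Prc1, which bundles antiparallel microtubules in the midzone of dividing cells, had 95, 71 and 82 scaled counts in KO 1 to 3 and 13, 19 and 16 in controls 1 to 3, which gave 1.88 on the log2 scale (limma adjusted p = 0.0214). On the deposited TPM its log2 fold change was 0.82 and did not pass (limma adjusted p = 0.777), and the call was lost in 3 of the 6 fits that leave out a library. Prc1 overlaps Rccd1, which is on the other strand and was at 0.49 on the log2 scale (limma adjusted p = 0.426). In rod TRAP Prc1 rose too, by 2.11 on that scale (limma adjusted p = 0.000124). Klk1b22, a tissue kallikrein, had 39, 72 and 131 scaled counts in KO 1 to 3 and 0 in all 3 controls. Set against a floor of 3 counts per control library, that is at least 26.0-fold higher (limma adjusted p = 0.00433). The kallikreins of its cluster are close copies, and how reads shared among them were assigned is not stated. Tescl had 35, 38 and 52 scaled counts in the knockouts and 0, 3 and 2 in the controls (25-fold, 95% exact interval 10.4 to 78.3, limma adjusted p = 0.00473). Klk1b22 and Tescl were low-abundance messages with almost no reads in the controls, and both passed the filter only through the knockouts.

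The 3 genes that fell were Eps8l1, Tnnt1 and Gm12758. Eps8l1, a relative of the actin regulator EPS8, went from 58.2 ± 15.4 CPM in controls to 2.89 ± 2.17 CPM in knockouts (SD, n = 3), and KO 3, the library with Abca4 message, had the lowest value (0.413 CPM). Its log2 fold change was -4.41 (SE 0.57, limma adjusted p = 0.0368) and -3.63 without KO 3. The call held only without KO 3 among the 6 fits that leave out a library, and it was lost with no filter (limma adjusted p = 0.213), with the replicate block (0.238) and with all 12 libraries in 1 fit (0.0665), at log2 fold changes of -4.34 to -4.41. Tnnt1, the troponin T of slow muscle fibres, had 212, 246 and 208 scaled counts in KO 1 to 3 and 523, 549 and 530 in controls 1 to 3 (log2 fold change -1.23, SE 0.18, limma adjusted p = 0.0404). Without KO 3 its log2 fold change was -1.13 (limma adjusted p = 0.0891), and the call was lost without each of the 6 libraries in turn. Gm12758, annotated as an antisense RNA, had 11, 9 and 14 scaled counts against 73, 56 and 46 (log2 fold change -1.72, SE 0.25, limma adjusted p = 0.0372). Its call was lost on the TPM table (limma adjusted p = 0.0977), with the authors' scaling alone (0.0642) and in 5 of the 6 fits that leave out a library, all but that without KO 3.

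**Figure D3:**
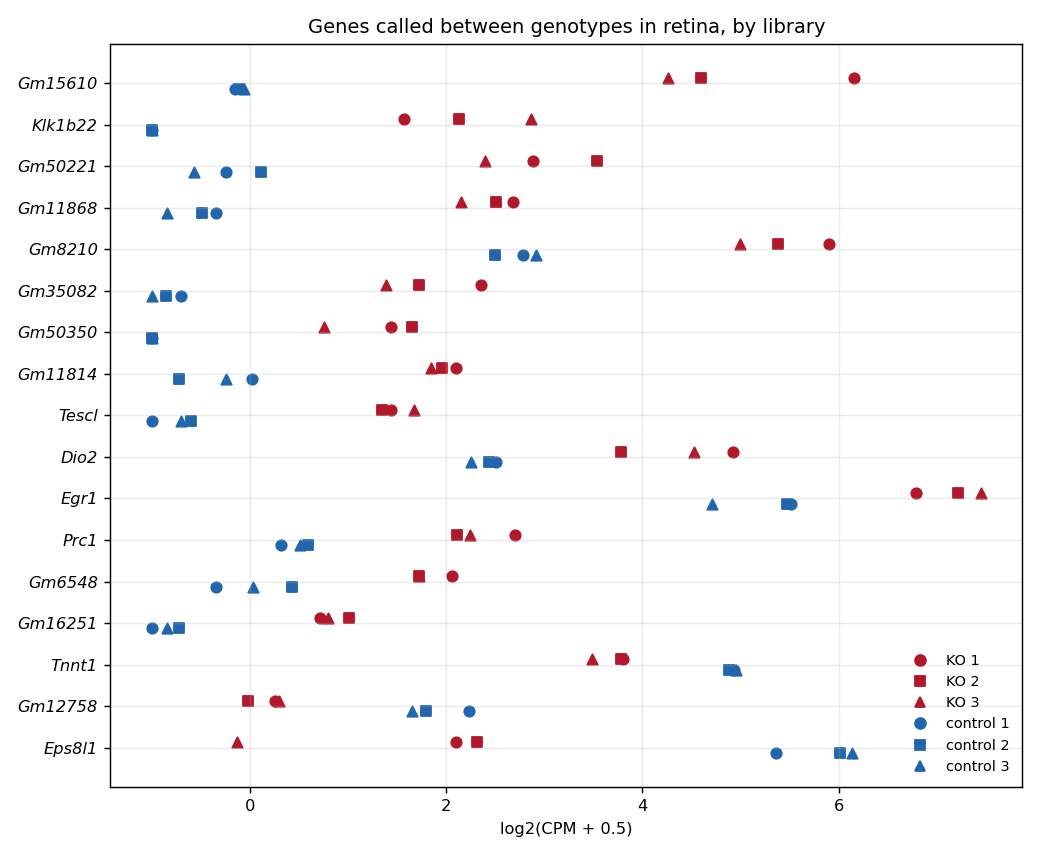
Level of 17 of the 18 called genes, log2(CPM + 0.5), in each of the 6 retina libraries, with 1 point per library, knockouts in red and controls in blue. In each of them the 3 knockout points lie on one side of the 3 control points, and in Eps8l1 KO 3 (red triangle, 0.413 CPM) is the lowest point.

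Of the 15 genes that rose, 5 are annotated as processed pseudogenes, which are reverse-transcribed copies of messages and can share reads with the gene they were copied from. They were Gm15610, Gm11868, Gm8210, Gm11814 and Gm6548. A further 10 pseudogenes, also higher with 6 libraries, passed only when KO 3 was left out. The share of pseudogenes among all tested genes was not counted, so these counts do not state an excess. Each of the 15 was matched by BLAST to the protein-coding transcript most like it, which gave 12 parent genes and identities of 88.7% to 99.7%. For Tma7, which codes for a small translation-associated protein, the coding stretch and its copy Gm15610 are shown, which differ there at single bases only. How reads that fit both were assigned is not stated. Capitals in a copy mark the bases that differ from the parent, at 4 of 195 positions.
Tma7: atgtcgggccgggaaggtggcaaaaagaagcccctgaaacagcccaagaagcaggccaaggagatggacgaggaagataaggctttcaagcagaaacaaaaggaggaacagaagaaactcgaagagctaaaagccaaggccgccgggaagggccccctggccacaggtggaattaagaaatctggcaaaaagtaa
Gm15610: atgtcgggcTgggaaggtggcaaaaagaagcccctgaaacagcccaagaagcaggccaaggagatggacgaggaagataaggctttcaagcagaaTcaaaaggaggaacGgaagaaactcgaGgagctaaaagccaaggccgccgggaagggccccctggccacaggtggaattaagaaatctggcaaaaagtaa

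For Rpl34, a protein of the large ribosomal subunit, positions 121 to 330 of the coding stretch are shown beside those of Rpl34-ps1, which differs at 2 of these 210 positions, and of Gm10154, which differs at 4. The sequences are GENCODE M21 transcripts on GRCm38, written 5′ to 3′, and positions are counted from the first base of the start codon.
Rpl34: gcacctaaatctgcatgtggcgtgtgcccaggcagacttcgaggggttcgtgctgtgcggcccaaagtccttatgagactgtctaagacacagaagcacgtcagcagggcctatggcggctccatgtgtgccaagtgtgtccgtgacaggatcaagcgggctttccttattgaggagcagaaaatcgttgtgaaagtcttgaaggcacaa
Rpl34-ps1: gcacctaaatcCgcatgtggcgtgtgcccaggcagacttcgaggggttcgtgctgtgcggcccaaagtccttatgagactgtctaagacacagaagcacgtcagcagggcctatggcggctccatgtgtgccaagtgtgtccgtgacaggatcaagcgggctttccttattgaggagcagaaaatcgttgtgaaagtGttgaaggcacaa
Gm10154: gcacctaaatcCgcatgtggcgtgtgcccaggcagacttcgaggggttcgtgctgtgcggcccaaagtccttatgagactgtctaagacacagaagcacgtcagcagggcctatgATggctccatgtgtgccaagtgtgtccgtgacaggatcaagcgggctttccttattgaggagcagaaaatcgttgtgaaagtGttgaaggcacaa

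Gm15610 had 70.9, 23.7 and 18.7 CPM in KO 1 to 3 and 0.402, 0.423 and 0.461 CPM in controls 1 to 3 (log2 fold change 5.11, SE 0.42, limma adjusted p = 0.00146). Its parent Tma7 was far more abundant, at 1242, 670.6 and 544.2 CPM in KO 1 to 3 and 973.8, 621.3 and 774.6 CPM in controls 1 to 3, and its groups overlapped. In the deposited TPM table Gm15610 was listed at 0 in KO 1, KO 2 and all controls and at 2.1 in KO 3, so the difference was absent there. Gm15610 lies within Crot, which is on the other strand and was at 0.62 on the log2 scale (limma adjusted p = 0.4).

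The Rpl34 family moved in opposite directions. Rpl34 stood at 23.9, 36.9 and 57.8 CPM in KO 1 to 3 and at 121.8, 87.6 and 109.9 CPM in controls 1 to 3. Its copies Rpl34-ps1 and Gm10154, summed, stood at 163.1, 85.0 and 32.0 CPM in KO 1 to 3 and at 11.1, 6.82 and 16.8 CPM in controls 1 to 3. Neither set of values overlapped between genotypes, and in both KO 3 lay closest to the controls. The sum of the 3 genes was 187.0, 121.9 and 89.9 CPM in knockouts and 132.9, 94.4 and 126.6 CPM in controls, which overlapped. With all libraries neither change passed (Rpl34, log2 fold change -1.49, limma adjusted p = 0.142; Rpl34-ps1, 2.71, limma adjusted p = 0.221). Without KO 3 both did, at -1.81 for Rpl34 (SE 0.24, limma adjusted p = 0.00627) and 3.33 for Rpl34-ps1 (limma adjusted p = 0.000894). Rpl34 lies on chromosome 3, as does Abca4, and Rpl34-ps1 on chromosome 6.

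Rpl29, also of the large ribosomal subunit, showed a like arrangement. The copies Gm8210, Gm13841 and Gm14036 summed to 130.5 ± 43.3 CPM in knockouts and 35.8 ± 5.47 CPM in controls (SD, n = 3) without overlap. The parent was at 73.6 ± 29.9 CPM and 134.7 ± 24.0 CPM, where KO 1 and control 2 were equal (107.4 CPM). Parent and copies together were at 204.1 ± 73.0 and 170.5 ± 29.4 CPM and overlapped. Gm8210 had 939, 764 and 608 scaled counts in KO 1 to 3 and 111, 97 and 122 in controls 1 to 3 (log2 fold change 2.70, SE 0.25, limma adjusted p = 0.00314). On the deposited TPM it was at 388.7, 334.8 and 297.3 in knockouts and listed at 0 in all controls.

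Over the 12 families, the summed copies did not overlap between genotypes in any, which the choice of these pseudogenes fixes. The parents overlapped in all but 2 families, Rpl34 among these, and the sum of parent and copies overlapped in all but 1. Of all tested genes, 19.9% did not overlap, so these counts do not set the parents or the sums apart from other genes. The log2 ratio of the sums, knockout to control, lay between -0.26 (Ldha with Gm11814) and 0.31 (Cyb5r4 with Gm11868). For Hspa8, the constitutive Hsp70 chaperone, the copy Gm15459 was at 274.1 ± 37.1 CPM against 126.7 ± 12.3 CPM, while the parent was at 778.1 ± 23.5 and 815.6 ± 67.5 CPM (SD, n = 3). How reads that fit several places were assigned is not stated, so a pseudogene value here is uncertain.

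**Figure D4:**
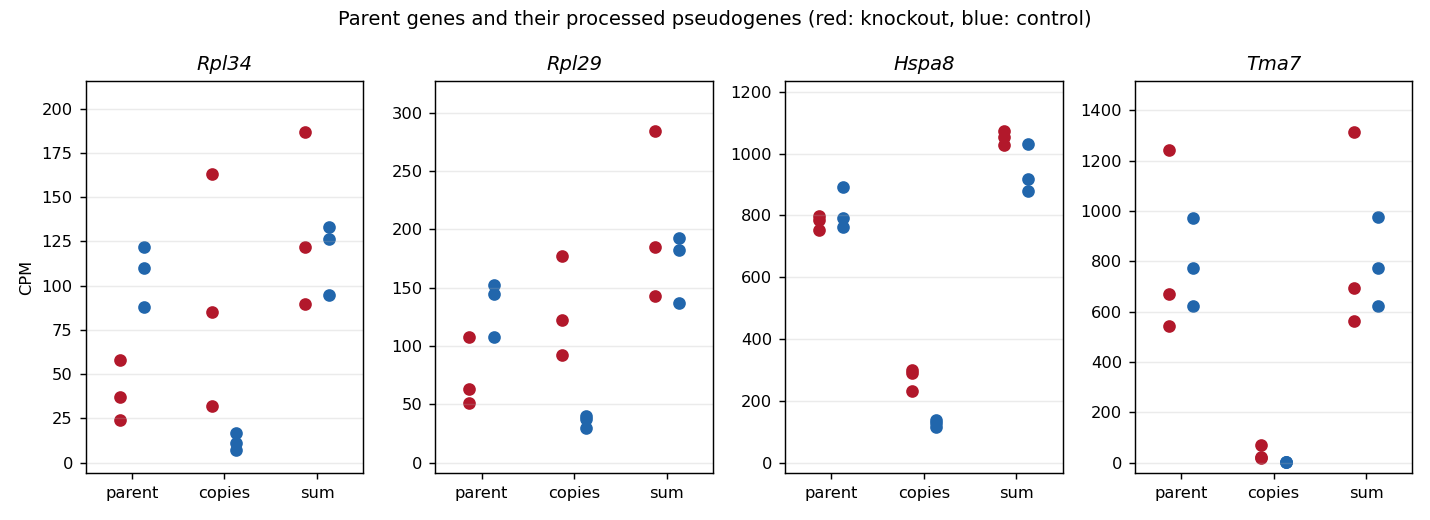
Level (CPM) of 4 parent genes, of their summed processed pseudogenes and of parent and copies together, with 1 point per retina library (red knockout, blue control). Copies were higher in every knockout library in all 4 families, while parent and copies together overlapped between genotypes.

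The remaining called genes were not protein-coding or had no gene type in the annotation used. Gm50221 had 109, 206 and 92 scaled counts in KO 1 to 3 and 6, 11 and 3 in controls 1 to 3 (log2 fold change 3.17, SE 0.32, limma adjusted p = 0.00433). Gm50350 had 35, 49 and 23 against 0 in all controls, at least 12.0-fold higher by the same floor. Gm35082, a long intergenic RNA, had 73, 52 and 41 against 2, 1 and 0 (55.3-fold, 95% exact interval 18.6 to 271). Gm16251, which lies antisense to Pvr, had 18, 28 and 24 against 0, 2 and 1 (23.3-fold, 95% exact interval 7.66 to 116), and Pvr was at 0.04 on that scale (limma adjusted p = 0.915). The pattern of reads in knockouts with few or none in controls was shared by these 4 genes.

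Chromosomes in the GRCm38 annotation, matched by symbol, were found for 16 of the 18 called genes. Of these, 8 lay on chromosome 7, where 1228 of the 16198 tested genes with a known chromosome lie (7.58%). They were Eps8l1, Tnnt1, Gm12758, Gm16251, Gm35082, Klk1b22, Prc1 and Tescl. Without KO 3, 11 of 33 were on chromosome 7 (33.3%), and of the genes with an unadjusted p under 0.05, 149 of 1954 were (7.63%). Chromosome 3, which carries Abca4, held none of the called genes with 6 libraries. Without KO 3 it held 3 of 33 (9.09%), Abca4 and Rpl34 among them, against 818 of the 16198 tested genes (5.05%). Among the 50 tested genes nearest to Abca4 in gene order, 25 on each side, 16 had an unadjusted p under 0.05 (32.0%, against 12.0% of all genes) and 17 did not overlap between genotypes (34.0%, against 19.9%). Among the 200 nearest these shares were 21.0% and 27.0%. Neighbouring genes can share regulation and reads, so they are not independent.

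Further genes passed without KO 3. Abca4, at -5.60 on the log2 scale with 6 libraries (SE 1.59, adjusted p from limma 0.4), was at -7.22 without KO 3 (limma adjusted p = 3.17e-08). Myo7a, the myosin of photoreceptors and RPE that moves opsin and melanosomes, had 108, 327 and 311 scaled counts in KO 1 to 3 and 765, 701 and 776 in controls 1 to 3. Its groups did not overlap (log2 fold change -1.70, limma adjusted p = 0.129, and -1.87, limma adjusted p = 0.0375, without KO 3). In rod TRAP it fell too, by 1.71 on the log2 scale (limma adjusted p = 0.00104). Gdpd3, a lysophospholipase D, had 187, 112 and 60 scaled counts against 21, 23 and 6 (log2 fold change 2.29, limma adjusted p = 0.147, and 2.72, limma adjusted p = 0.00971, without KO 3). Gm10524 and Gm9195 were lower, with log2 fold changes of -1.92 and -1.48, and -2.34 and -1.94 without KO 3, where both passed. The Rplp1 copy Gm11942 was higher (1.71, and 1.93 without KO 3, where it passed). Pkm, the pyruvate kinase gene that the study is about, had 63812, 55582 and 50331 scaled counts in KO 1 to 3 and 71116, 66168 and 79093 in controls 1 to 3. As CPM, KO 2 and KO 3 (2992 and 2599 CPM) lay below every control and KO 1 (4041 CPM) lay within the control range of 3497 to 4557 CPM. The log2 fold change of -0.35 (SE 0.23) did not pass (limma adjusted p = 0.506).

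Of the lists of cell type markers, none held a called gene in the fit of all 6 libraries, nor without KO 3. In bulk tissue fewer cells of a type and less message per cell cannot be told apart. Of the 20 rod markers tested, 10 were higher and 10 lower, with a median log2 fold change of 0, against -0.02 over all genes. For this and the other lists the range of the median over the 6 fits that each leave out 1 library is given after it. In rods it ran from -0.29 without KO 1, where 15 of 20 were lower, to 0.16 without KO 3, where 19 of 20 were higher, so that the direction depended on a single library. The largest difference among rod markers was in Cnga1, a subunit of the rod cyclic nucleotide-gated channel (0.77, SE 0.27, limma adjusted p = 0.4), and the lowest in Reep6 (-0.29, limma adjusted p = 0.612).

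Cone markers were lower in 11 of 15, with a median of -0.23 (-0.37 to -0.15). Opn1mw, the green cone opsin, was at 145.3, 132.0 and 99.8 CPM in KO 1 to 3 and 222.7, 146.7 and 226.4 CPM in controls 1 to 3. All knockouts lay below all controls, by little at the closest (log2 fold change -0.65, SE 0.22, limma adjusted p = 0.4). Thrb, the thyroid hormone receptor that sets green cone fate, was the cone marker with the highest value (0.66, limma adjusted p = 0.4). Summed over the list, cones were at 4350 ± 64.0 CPM in knockouts and 4650 ± 428 CPM in controls (SD, n = 3), with overlap.

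Müller glia markers were evenly split, 8 higher and 7 lower (median 0.01, range -0.17 to 0.20). Aqp4, the water channel of Müller end-feet and astrocytes, was at 41.7, 34.99 and 60.1 CPM in KO 1 to 3 and 21.6, 34.9 and 21.6 CPM in controls 1 to 3, so that KO 2 and control 2 nearly met (log2 fold change 0.80, SE 0.25, limma adjusted p = 0.4). Hes1, a Notch target, was the lowest of the list (-0.59, limma adjusted p = 0.416). Gfap, the filament protein that reactive Müller glia and astrocytes accumulate, was at 33.2, 38.4 and 25.8 CPM in knockouts and 62.9, 31.0 and 40.6 CPM in controls (-0.42, SE 0.26, limma adjusted p = 0.491). Astrocyte markers had a median of 0.40 over 9 genes, with a range from 0.07 without control 2 to 0.42.

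Inner retinal neurons showed small medians, whose direction depended on the libraries used in 3 of the 4 classes. Bipolar markers had a median of -0.06 over 15 genes, amacrine markers 0.03 over 16, horizontal cell markers -0.16 over 8 and ganglion cell markers -0.11 over 16. The ranges were -0.29 to 0.20 for bipolar, -0.23 to 0.28 for amacrine, -0.25 to 0.02 for horizontal and -0.20 to -0.03 for ganglion cell markers, and each was highest without KO 1. Trpm1, the transduction channel of ON bipolar cells, was at 28.5 CPM in KO 1 against 135.2 and 150.6 CPM in KO 2 and KO 3 and 115.0 to 177.0 CPM in controls (log2 fold change -0.77, SE 0.63, limma adjusted p = 0.6), and Cabp5 was the highest of the bipolar list (0.67, limma adjusted p = 0.4). Of the amacrine list Slc18a3, the vesicular transporter of cholinergic cells, was lowest (-0.54) and Dab1 highest (0.64), both with a limma adjusted p of 0.4. Lhx1 (-0.59) and Onecut2 (0.39) bounded the horizontal cell list, and Isl2 (-0.55) and Slc17a6 (0.49) the ganglion cell list, and none of these passed. Summed ganglion cell markers were at 1100 ± 124 CPM in knockouts and 1240 ± 43.9 CPM in controls (SD, n = 3) without overlap.

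Among non-neuronal cells, microglia markers were lower in 15 of 17, with a median of -0.32 (-0.47 without control 1 to -0.19 without control 3). C1qc, a complement subunit made by microglia, was at 6.78, 7.80 and 6.25 CPM in KO 1 to 3 and 11.8, 8.93 and 14.0 CPM in controls 1 to 3 (log2 fold change -0.68, SE 0.23, limma adjusted p = 0.4). Of the receptors known from homeostatic microglia, Cx3cr1 was at 0.14 and P2ry12 at 0.31 on the log2 scale, the only members above 0, and Fcrls was the lowest member of the list, at 0.0633, 1.02 and 0.516 CPM in KO 1 to 3 and 1.90, 0.951 and 1.498 CPM in controls 1 to 3 (limma adjusted p = 0.4). Summed over the list, microglia stood at 95.4 to 114.9 CPM in knockouts and 115.9 to 155.6 CPM in controls. Vascular markers were lower in 12 of 19 (median -0.28), from Acta2 (-1.55, SE 1.61) to Rgs5 (0.52). Without KO 1 the median turned to 0.21 with 14 of 19 higher, and without KO 2 it was -0.45.

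RPE markers had a median of -0.64 over 17 genes (14 lower), with a range from -0.78 without control 1 to -0.26 without KO 1. Pmel, a melanosome matrix protein, was at 2.41, 125.7 and 59.2 CPM in KO 1 to 3 and 80.8, 74.99 and 283.1 CPM in controls 1 to 3. KO 1 was nearly without it and control 3 held the most (log2 fold change -2.10, SE 1.72, limma adjusted p = 0.614). The highest of the list was Krt18 (0.60). Their summed level ran from 346.5 to 651.4 CPM in knockouts and from 460.3 to 1044 CPM in controls. Blood markers were lower in 5 of 5 tested genes (median -0.93, range -1.41 without control 2 to -0.66 without control 1), from Hba-a2 (-1.26, SE 0.47, limma adjusted p = 0.4) to Hba-a1 (-0.82). Their sum ran from 69.4 to 157.2 CPM in knockouts and from 97.2 to 268.2 CPM in controls and was high in control 1 and control 3. Cornea, iris and ciliary body markers were lower in 5 of 6 tested, from Optc (-0.84) to Aldh3a1 (1.00, SE 1.92), and Aldh3a1 was at 18.7, 13.9 and 16.2 CPM in KO 2, KO 3 and control 1 and at 1.04 CPM or below in the other 3. Skeletal muscle markers passed the filter in 3 of 12 genes, from Pvalb (-0.40) to Acta1 (-0.21).

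Lens genes were tested in 18 of 23, with a median of 0.91 and fold changes from -2.53 (Crygd) to 2.00 (Mip), whose standard errors were 2.19 and 3.47. The median ran from -0.52 without control 2 to 3.22 without control 1, and was below 0 without KO 2, KO 3 or control 3 too. No lens gene passed with 6 libraries. With the lens level as a covariate, 26 genes passed in all and 17 of the 18 remained (Tnnt1 did not, limma adjusted p = 0.0626), and Bfsp2, a lens filament protein, was the only lens gene that passed (-2.00, limma adjusted p = 0.0058).

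Among pathways, the visual cycle and the ABCA family hold the targeted gene. Apart from Abca4, visual cycle genes ran from Rdh5, a retinol dehydrogenase of the RPE (log2 fold change -0.73, SE 0.28, limma adjusted p = 0.4), to Rdh11 (0.26), and 14 of 18 were lower with Abca4 counted (median -0.23, range -0.36 without KO 1 to -0.13 without KO 3). Rdh8, which reduces all-trans-retinal in outer segments, was at 180.8, 123.4 and 110.2 CPM in KO 1 to 3 and 116.9, 112.4 and 127.3 CPM in controls 1 to 3, and the groups overlapped (0.18, SE 0.20, limma adjusted p = 0.675). Of the 11 ABCA genes tested, 6 were higher and 5 lower, with a median of 0.52 (0.34 without KO 3 to 0.59). Abca8b (0.69), Abca13 (0.66), Abca5 (0.64), Abca8a (0.61) and Abca1 (0.52), the cholesterol exporter, each had an unadjusted p under 0.05 and a limma adjusted p between 0.4 and 0.403, where 8.92% of all genes reached the unadjusted p in that direction. Without KO 3 a single member that was higher reached it, and likewise without control 3. Abca2 was the lowest after Abca4 (-0.58). Rod phototransduction genes had a median of 0.03 over 21, from Guca1b (-0.24) to Cnga1. The median was -0.19 without KO 1 (14 of 21 lower) and 0.17 without KO 3 (20 of 21 higher).

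All 13 mitochondrially encoded messages were higher in knockouts, by 0.70 (mt-Nd2) to 1.07 (mt-Atp8) on the log2 scale, with a median of 0.84. An unadjusted p under 0.05 was reached by 12 of 13, against 8.92% of all genes in that direction, and none passed the adjusted threshold (limma adjusted p = 0.4 for mt-Atp8). The 13 come from shared precursor transcripts and are not independent. Their summed level was 61500, 24890 and 27910 CPM in KO 1 to 3 and 22760, 16410 and 18100 CPM in controls 1 to 3, so that KO 1 stood apart and KO 2 was close to control 1. Without KO 1 the median was 0.45 and 9 of 13 had an unadjusted p under 0.05, and without control 3 it was 0.84 with 3 of 13. Of the 77 nuclear genes of oxidative phosphorylation tested, 67 were lower, with a median of -0.13, from Cox8b (-1.27) to Ndufb2 (0.35). The median was -0.28 without KO 1 (74 of 77 lower) and 0.03 without KO 3 (48 of 77 higher). The TCA cycle genes had a median of -0.10 over 31 (-0.15 to -0.01), from Pdk2 (-0.31) to Dld (0.79), and glycolysis genes -0.23 over 21 (-0.32 without control 2 to -0.12 without control 3), from the lactate transporter Slc16a3 (-0.58) to Hk2 (0.24). Ribosomal protein genes had a median of -0.05 over 77, which was -0.31 without KO 1 (75 of 77 lower) and 0.16 without KO 3 (70 of 77 higher). The outliers among them were Rpl34 (-1.49) and Rpl29 (-0.92), described above with their copies, and Rpl4 was highest (0.24).

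Immediate-early genes, which respond to stimulation before new protein is made, held the called gene Egr1. Of 25 tested, 17 were higher, with a median of 0.22 (0.12 without KO 3 to 0.27). An unadjusted p under 0.05 was reached by 7 (against 8.92% of all genes in that direction), all higher, and by 4 without KO 3. Nr4a1, an orphan nuclear receptor, was at 32.4, 47.6 and 55.7 CPM in KO 1 to 3 and 21.8, 17.4 and 18.8 CPM in controls 1 to 3. The 3 knockouts were above the 3 controls (log2 fold change 1.17, SE 0.22, limma adjusted p = 0.14), and without KO 1 the gene passed (1.40, limma adjusted p = 0.0377). Fos was at 33.6, 49.6 and 64.7 CPM in KO 1 to 3 and 22.9, 24.6 and 19.1 CPM in controls 1 to 3, also without overlap (1.09, SE 0.24, limma adjusted p = 0.239). Nr4a3 was at 1.33, Fosl2 and Egr3 at 0.59 and Junb at 0.48, none of which passed, and Arc, a synaptic immediate-early gene, was lowest (-0.45, limma adjusted p = 0.436). KO 1 was the lowest knockout for Egr1, Nr4a1 and Fos.

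The thyroid hormone list held the called gene Dio2. Dio3, the deiodinase that inactivates thyroid hormone, was at 3.80, 3.93 and 3.25 CPM in KO 1 to 3 and 6.49, 5.60 and 9.04 CPM in controls 1 to 3, the reverse of Dio2 and without overlap (log2 fold change -0.84, SE 0.24, limma adjusted p = 0.4). Klf9, a classical thyroid hormone target, was at 122.0, 60.4 and 101.1 CPM in KO 1 to 3 and 54.2, 62.9 and 40.6 CPM in controls 1 to 3, where KO 2 fell within the controls (0.80, SE 0.26, limma adjusted p = 0.4). Over the 20 genes tested the median was -0.11 (-0.18 to 0.01), with 9 higher and 11 lower.

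Immune lists lay mostly below 0 and held no called gene. Antigen presentation genes were lower in 19 of 20 (median -0.24), and 6 had an unadjusted p under 0.05, all lower (against 3.07% of all genes in that direction). These included the class II genes H2-Aa (-1.31), H2-Eb1 (-1.23), Cd74 (-1.23) and H2-Ab1 (-1.10), of which H2-Eb1 was at 1.14, 2.26 and 1.03 CPM in KO 1 to 3 and 3.22, 3.91 and 4.96 CPM in controls 1 to 3 (limma adjusted p = 0.316). H2-T23 was the highest (0.18). Without control 3 the list was 8 higher and 12 lower (median -0.09), and the median was lowest without KO 2 (-0.45). Complement genes were lower in 15 of 17 (median -0.47, range -0.61 without control 2 to -0.31 without control 3), and C4b was the lowest (-1.10, limma adjusted p = 0.4). The summed microglia and blood markers, given above, were also lower on average in knockouts, and their part in these lists was not tested. Interferon response genes had a median of -0.05 over 22 (-0.37 without KO 2 to 0.17 without KO 1), from Ifitm3 (-0.71) to Xaf1 (0.60), and chemokines and their receptors -0.12 over the 14 of 37 that passed the filter (-0.24 to 0.01), from Ackr3 (-0.73) to Ccl25 (0.44).

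The gliosis and retinal stress list (21 tested, median -0.09, range -0.19 to -0.07) ran from Bcl3 (-0.94) to Egr1, which it shares with the immediate-early list. A2m, the protease inhibitor α2-macroglobulin, was at 7.98, 8.94 and 8.42 CPM in KO 1 to 3 and 17.2, 13.8 and 17.7 CPM in controls 1 to 3 (log2 fold change -0.90, SE 0.20, limma adjusted p = 0.239), while ceruloplasmin (Cp), a copper ferroxidase, was at 68.5, 63.9 and 85.8 CPM in knockouts and 45.7, 47.9 and 39.1 CPM in controls (0.71, SE 0.17, limma adjusted p = 0.348). Neither gene's groups overlapped. Antioxidant genes were lower in 28 of 34 (median -0.13, range -0.24 without control 2 to -0.03 without control 3), from Gpx3, the secreted glutathione peroxidase (-0.97, limma adjusted p = 0.337), to the cystine transporter Slc7a11 (1.07, limma adjusted p = 0.4). In the unfolded protein response list 14 of 26 were higher (median 0.01, range -0.05 to 0.10), and 6 had an unadjusted p under 0.05, all higher (against 8.92% of all genes in that direction). Hsp90b1 (0.82), Dnajc3 (0.73), Canx and Dnajb9 (0.49), Hspa5 (0.48) and Pdia3 (0.39), chaperones of the endoplasmic reticulum and their partners, were the 6, each with a limma adjusted p between 0.4 and 0.414. Without KO 1 or without KO 3 a single member reached the unadjusted p, and without control 3 0 members did. Asns, a target of the integrated stress response, was the lowest of the list (-0.54).

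The other lists held no called gene. Wnt and frizzled genes had a median of -0.04 over 31 (-0.14 to 0.15), from Fzd10 (-0.79, limma adjusted p = 0.285) to Wnt7b (1.11), and Wnt7b was at 13.3, 14.2 and 26.9 CPM in KO 2, KO 3 and control 1, the libraries high in lens messages, and at 0.173 CPM or below in the other 3. Cholesterol synthesis genes had a median of -0.16 over 24 (-0.19 to 0.01), with Idi1 the highest (0.78), and lysosomal genes -0.18 over 34 (-0.28 to -0.07), from Galns (-0.68) to Lamp2 (0.39). Cell death genes had a median of -0.11 over 24 (-0.18 to -0.03), from Bik (-0.54) to Bcl2 (0.92), and clock genes -0.08 over 21 (-0.17 to 0.01), from Ciart (-0.36) to Rorb (0.78). None of these members passed. The sex-linked list had a median of 0.40 over 5 genes, and Xist was its highest member (2.40, SE 2.21, limma adjusted p = 0.647). Its median fell to -0.10 without control 3, the library with the lowest summed level of the Y-linked genes (9.62 CPM).

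**Figure D5:**
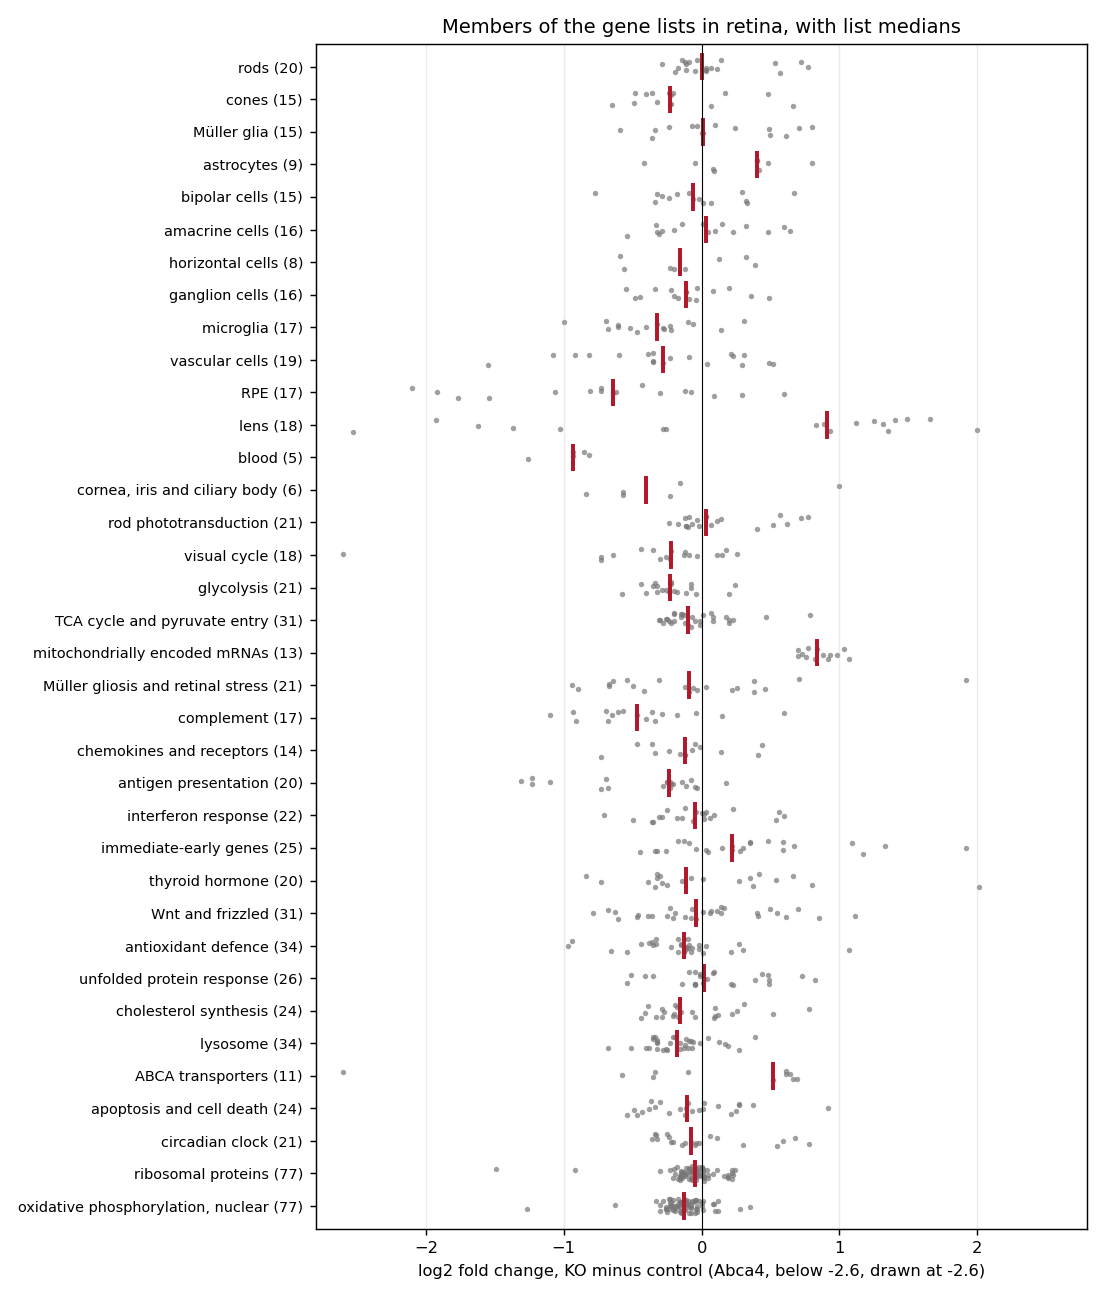
Log2 fold change (KO minus control, x axis) of each tested member of the gene lists in retina, with 1 point per gene, the median of a list as a red bar and the number tested in brackets. The 13 mitochondrially encoded messages lie together above 0 (median 0.84), blood (-0.93), RPE (-0.64) and complement (-0.47) lie mostly below 0, and the lens genes spread from -2.53 to 2.00.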

How the data were processed

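The authors deposited 2 tables for 12 libraries. Per the processing notes in the labels, CASAVA 1.8.2, HISAT2 and the GRCm39 build were used. The first table holds a score named here a scaled count, read counts that the authors multiplied by 1 factor per library and rounded, and the second holds deposited TPM values. The totals were 17860761 to 17862326 in retina. Behind them lay about 14.8 to 23.2 times 1000000 reads, as read from the spacing of low values. Since these are not raw counts, the planned count test was replaced. Libraries were rescaled by trimmed means of M values and fitted as log2(CPM + 0.5) with limma 3.58.1 in R 4.3.3 (trend, robust, two-sided, Benjamini-Hochberg), for genes with at least 10 scaled counts in 3 libraries. Genes could thus enter through the libraries of a single genotype. On simulated data, 62.0% of 2-fold and 100% of 4-fold rises were recovered among 16946 genes. The simulation gave every gene a dispersion of 0.04 and held none of the library differences described above. These shares therefore do not state what could be detected in the real libraries. Standard errors are limma's. Intervals and floors (3 counts per library) cover counting error only.

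The members and gene lists were chosen with earlier results of these data known. Genes are named when called with 6 libraries, when among the 10 largest called rises or falls without KO 3 (no overlap, mean of at least 5 CPM), as extremes of a list, as lens and sex-linked genes, or when called for the interaction. Some genes that these rules name are not reported here. The pathway examples beyond these, the genes near Abca4 and the family sums were chosen after values were seen. Pseudogenes were matched with blastn 2.17.0 to GENCODE M21 (GRCm38), and since the builds differ no positions are given. Libraries of the same number in retina and rod TRAP deviated together (r of 0.169 to 0.461). KO 3 in retina and KO 2 in rod TRAP, of unlike number, did so too (r of 0.24). The main interaction fit had no term for pairs. Same-numbered libraries were treated as pairs only in the interaction's replicate block and where a replicate pair was left out. Alternatives changed the scaling, filter, pseudocount, table, robustness, libraries, block and lens terms.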

Additional observations from a re-analysis of the deposited data

Results flagged for a closer look

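The genotype effect differed between retina and rod TRAP for 1 of 17273 genes tested (0.00579%), Pcsk6, a proprotein convertase. The interaction, retina minus rod TRAP, was a log2 difference of -4.83, with a standard error of 0.32 (adjusted p from limma 3.17e-06, and 5.99e-07 with a replicate block on the numbers that retina and rod TRAP libraries share). In retina Pcsk6 had 279, 319 and 476 scaled counts in KO 1 to 3 and 390, 611 and 582 in controls 1 to 3 (log2 fold change -0.56, limma adjusted p = 0.4). In rod TRAP it had 255, 170 and 298 in knockouts and 6, 6 and 4 in controls (log2 fold change 4.14). It passed in all 5 alternatives and without each replicate pair in turn.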

How the results depend on the processing

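Against 18 genes called in retina, 33 passed with no filter (17 of the 18 among them), 9 with the higher filter, 38 on the TPM table (11 of the 18), and 62 with all 12 libraries in 1 fit (15 of the 18). The authors' scaling alone gave 12, a pseudocount of 2 CPM 18, the non-robust fit 19, lens genes left out of the scaling 18 and the lens covariate 26. Leaving out 1 library gave 1 (control 3) to 37 (KO 3) called genes. The share of calls that were higher was 15 of 18, and 46 of 62 with all 12 libraries. With a replicate block 46 passed (17 of the 18), but knockouts and controls of the same number did not deviate together (r of -0.0173, -0.263 and -0.391), so in retina the libraries share only a number, and no knockout library correlated best with the control of its own number. For the interaction, 1 gene passed, 3 on the TPM table (with Gm25777 and mt-Co3), and 1 to 2 without a replicate pair (Gm45104 without KO 1 and Armh4 without KO 2). Of 281 values of named genes under other settings, 18 gained and 20 lost a call, and of 174 with a library left out, 10 gained and 42 lost one. None changed direction when called. With a library left out, the lack of overlap between the genotypes all but fixed this. Of the list medians, 4 of 379 and, with a library left out, 15 of 228 moved by more than the spread between replicates. Leaving out 1 of 3 libraries tends to shift a median by less than that spread. These counts therefore do not show that the medians were stable, and several changed sign, as given above. Precision is limited by 3 libraries a genotype, and the causes of these differences were not tested.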
